A study of Homo sapiens with 6 samples.

Results

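In MDA-MB-231 breast cancer cells, 40 genes outside the larger families had a probe set that read as background on every control array and clearly above it on every array labelled as transduced with the transcription factor GATA3. They were chosen by those same readings, and 10 of them had another probe set over 4 on at least 1 control array, so the pattern is one of probe sets and not always of the gene. A probe set was taken where its platform annotation gave 1 gene symbol, where the highest of 3 control values was at or under 4 and where the lowest of 3 values labelled GATA3 was 6 or more, on the log2 scale. Symbols with 21 prefixes, among them keratins, claudins, collagens, metalloproteinases and solute carriers, and 7 single genes were left out. The rule kept 47 probe sets of 40 genes among 54675 probe sets, of which 41097 had 1 symbol, for 19775 genes. Before symbols were left out, 82 probe sets of 66 genes lay within the limits, 0.200% of the probe sets with 1 symbol. The mirrored limits, 6 or more in the control and 4 or under in the arrays labelled GATA3, held 23 probe sets of 19 genes. Because the comparison of the groups selected these genes, their difference between the groups is a description, and no test result is given for it.

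GATA3 is a zinc finger protein that binds the letters GATA in DNA and is known for its part in the luminal cells of the mammary gland, in T cells and in the trophoblast of the placenta. A gene that is read as silent in one state and active in another can encode anything from a signal to an enzyme. The 40 genes here were not chosen for a shared pathway. Several do belong to known partnerships: matriptase (ST14) and its inhibitor HAI-1 (SPINT1) sit together on epithelial surfaces, and secreted BMP5, HHIP and PAPPA act on the bone morphogenetic protein, Hedgehog and insulin-like growth factor pathways.

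MDA-MB-231 is an established human breast cancer line of basal, mesenchymal-like character. Its cells received a lentivirus with enhanced green fluorescent protein (GFP) alone in the control, or with GATA3 and GFP, and were sorted for GFP in both cases. Total RNA was collected 2 days after seeding, and each group was hybridised to 3 arrays. The labels do not state the promoter of the vector, whether the sorted cells were a pool or a clone, or whether the triplicates were separate cultures, so any p-value below measures a spread between arrays that may be only technical. The values, made with GCRMA, were read as log2 and have a common floor of 2.16 on every array, and 3 arrays per group limit the precision.

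GATA3 itself went against its label. Probe set 209604_s_at read 9.37, 9.35 and 9.45 in the control arrays and 7.93, 7.94 and 7.32 in the arrays labelled GATA3, a log2 change of -1.66 (SE 0.18; limma adjusted p 0.00238), which is 3.16-fold lower. The dimmer 209602_s_at had a mean of 4.73 in the control and of 3.24 in the arrays labelled GATA3. It lay under 4 on every array labelled GATA3, so it was tested only through the control arrays. Its direction was thus fixed, and no p-value is given for it. Probe set 209603_at lay under 4 on all 6 arrays. Whether these probe sets read the sequence brought in by the virus is unknown, since probe sequences were not used. Every direction below rests on the labels. All 10 markers fixed for MDA-MB-231, VIM and CD44 among them, lay over 4 on every array, with a summed level of 135 to 136 in the control and 132 to 134 in the arrays labelled GATA3. Of 12 white blood cell markers 1 lay over 4 on all control arrays and 0 on all arrays labelled GATA3, with sums of 29.8 to 30.8 and 29.6 to 29.9, and PTPRC, CD14 and CD3E never did. Of 11 markers of endothelial cells and pericytes only ESAM and PDGFRB lay over 4 on all arrays (sums of 35.5 to 35.7 and 33.7 to 34.4), while 5 of 10 luminal markers, ESR1, KRT8, KRT18, XBP1 and MLPH, did so in both groups (62.1 to 62.6 and 63.5 to 64.0). The other luminal markers, PGR, FOXA1, TFF1, TFF3 and GREB1, lay at or under 4 on every array. Each marker was read by its brightest probe set alone. The part of these levels in the results was not tested. In bulk RNA more cells that express a gene and more of its RNA per cell cannot be told apart. GATA3 replicate 3 differed from the other arrays in the date within its raw-file name and in an upper quartile of 7.78 against 7.97 to 8.04, and correlated less with the others of its group (the correlations within the group spanned 0.984 to 0.997).

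Over all genes the difference between the groups was wide and even in direction. Of 23785 probe sets tested with limma, 2698 (11.3%) were higher with GATA3 and 3329 (14.0%) were lower, at an adjusted p under 0.05. With 1 probe set per gene, 1601 of 10814 genes (14.8%) were higher and 1571 (14.5%) lower, with a median change of -0.02. These shares are the background for every count below. Without GATA3 replicate 2 or control replicate 2 the probe sets called higher numbered 1734 and 1784. The count called lower was 2125 without GATA3 replicate 2 and 1885, 1777 and 1683 without control replicates 1, 2 and 3.

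Across the 40 genes, each by its member probe set with the highest mean in the arrays labelled GATA3, the median of the means was 7.55 in those arrays and 2.74 in the control. The difference of the means ran from 2.80 for EDN2 to 8.26 for ODAPH. Because a control value at or under 4 may hold no signal, the fold was also taken against 4, which gives a lower bound for that probe set and not for the gene as a whole. That bound ran from at least 5.12-fold for MOXD1 to at least 101-fold for ODAPH, with a median of at least 11.7-fold. The spread between arrays was small beside these differences, with a median SD of 0.24 in the arrays labelled GATA3 and 0.10 in the control (n = 3 each). The small control SD has a floor in it: in 23 of the 47 probe sets at least 2 control arrays read the same value within 0.001, in 9 all 3 did, and 2 lay at the lowest value of the table. Levels of different probe sets depend on their probes, so the order in which genes are listed is no order of RNA abundance.

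**Figure D1:**
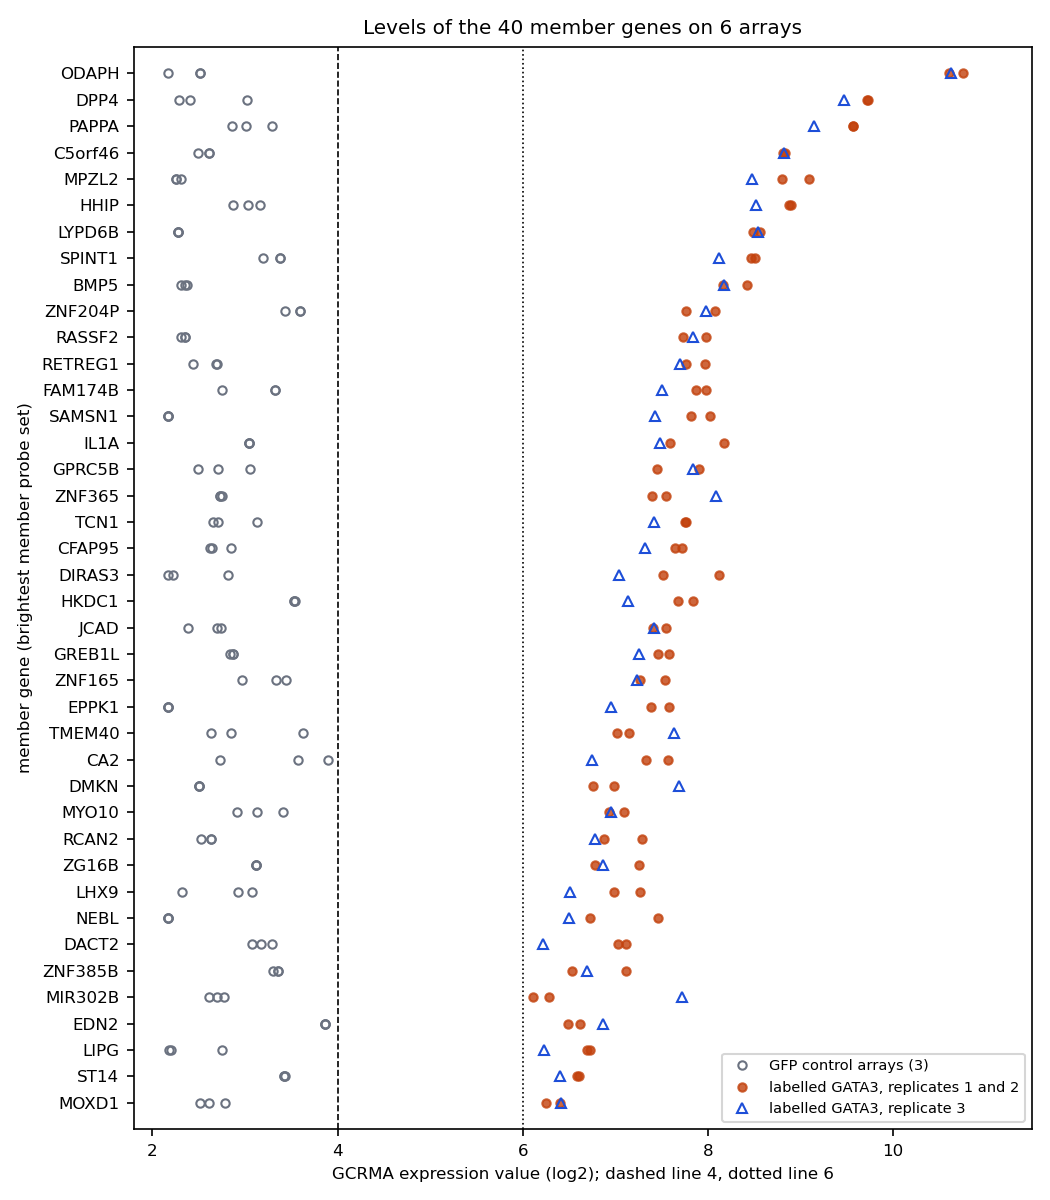
Expression values (GCRMA, log2, horizontal axis) of the 40 genes on the 3 GFP control arrays (open circles), GATA3 replicates 1 and 2 (filled circles) and GATA3 replicate 3 (triangles), each gene by its brightest member probe set. The empty band between the dashed line at 4 and the dotted line at 6 is set by the rule, while the width of each cluster of 3 points, narrow for C5orf46 (SD 0.01 in the arrays labelled GATA3) and wide for MIR302B (SD 0.88), is not.

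The DNA just before the start of these genes was read for letters that GATA factors bind, because GATA3 is the factor named in the labels. RefSeq (GRCh38.p14) promoters were at hand for 33 of the 40 genes, and the 250 bases before the start were searched on both strands for the hexamer AGATAA, its variant TGATAA, and the same pair ending in G, written AGATAG for the former and TGATAG for the latter, which differ only in their first and last letters and so cannot match at the same position. Such a hexamer stood before 8 of 33 genes (24.2%), against 6254 of 27305 promoters of the table (22.9%) and 2684 of 15382 promoters of genes on the array (17.4%). The 4 brightest genes that hold one, C5orf46, LYPD6B, RASSF2 and SAMSN1, by these readings, are printed here to show where the hexamers lie. Each sequence runs 5′ to 3′ on the gene's strand and ends at the base before the start, with the hexamers in capitals (one on the other strand appears as its reverse complement).
C5orf46: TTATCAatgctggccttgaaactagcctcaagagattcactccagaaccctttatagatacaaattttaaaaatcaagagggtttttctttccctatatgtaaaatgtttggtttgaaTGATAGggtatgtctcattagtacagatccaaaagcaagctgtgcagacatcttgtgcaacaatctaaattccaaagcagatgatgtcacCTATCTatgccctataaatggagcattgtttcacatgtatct
LYPD6B: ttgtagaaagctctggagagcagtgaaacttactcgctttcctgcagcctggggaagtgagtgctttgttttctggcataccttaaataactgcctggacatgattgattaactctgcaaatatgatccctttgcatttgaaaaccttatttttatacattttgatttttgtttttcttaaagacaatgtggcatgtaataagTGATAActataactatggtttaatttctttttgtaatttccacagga
RASSF2: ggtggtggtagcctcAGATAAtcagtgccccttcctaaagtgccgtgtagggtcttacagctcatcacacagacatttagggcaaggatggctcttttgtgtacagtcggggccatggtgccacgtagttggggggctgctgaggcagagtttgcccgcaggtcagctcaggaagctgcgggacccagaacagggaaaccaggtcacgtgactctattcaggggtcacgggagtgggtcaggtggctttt
SAMSN1: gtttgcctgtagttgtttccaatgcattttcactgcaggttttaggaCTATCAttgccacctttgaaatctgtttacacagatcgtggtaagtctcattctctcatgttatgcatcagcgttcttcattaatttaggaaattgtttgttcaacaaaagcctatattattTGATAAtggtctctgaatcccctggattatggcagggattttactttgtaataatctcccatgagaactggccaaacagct
They lie at chr5:147906539-147906788 (minus strand), chr2:149077272-149077521 (plus), chr20:4815148-4815397 (minus) and chr21:14658847-14659096 (minus). The hexamers begin 250, 132 and 42 bases before the start of C5orf46, 47 before that of LYPD6B, 235 before that of RASSF2 and 203 and 81 before that of SAMSN1. CFAP95 holds 2 more, and JCAD, TMEM40 and ZG16B hold 1 each. A match is a run of letters and not a measured binding site.

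C5orf46 encodes a small protein predicted to be secreted. It read 2.49, 2.61 and 2.61 in the control arrays and 8.84, 8.81 and 8.83 in the arrays labelled GATA3, where the 3 values differed least among the 40 genes (SD 0.01, n = 3). LYPD6B, a membrane-anchored protein of the LY6 family that modulates acetylcholine receptors, read 2.28 on all 3 control arrays and 8.48, 8.56 and 8.54 in the arrays labelled GATA3. Both genes were high on each array labelled GATA3 and low on each control array, at least 28.3-fold and at least 23.0-fold higher. RASSF2, a RAS-association protein that binds the MST kinases and is known as a tumour suppressor, read 2.35, 2.31 and 2.35 in the control and 7.98, 7.73 and 7.84 in the arrays labelled GATA3. SAMSN1, an adaptor protein first described in blood cells, lay at the floor of 2.16 on all 3 control arrays and read 8.02, 7.82 and 7.43 in the arrays labelled GATA3, with replicate 3 the lowest.

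For the E-box the share was near that of all promoters, and for the AP-1 site and the TATA box it was above it. The E-box CAGGTG, which the epithelial repressors of the ZEB and SNAI families bind, stood before 6 of 33 genes (18.2%), against 17.5% of all promoters. The AP-1 site TGANTCA stood before 3 (9.09%; IL1A, JCAD and ODAPH), against 6.60%. The TATA box TATAAA, searched on the gene's strand within the last 50 bases, stood before 4 (12.1%; C5orf46, DIRAS3, PAPPA and ZG16B), against 2.92%. The median number of CpG pairs was 14, against 18 for genes on the array, and 11 of 33 (33.3%) had 5 or fewer, against 22.5%. These are shares of letters over 250 bases, given with no test.

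Signals outside the cell and their modulators made up 7 genes, with LYPD6B among them. PAPPA is a metalloproteinase abundant in placenta that cuts insulin-like growth factor binding proteins and so frees the growth factor. Its probe set 224941_at read 2.86, 3.29 and 3.01 in the control and 9.56, 9.57 and 9.15 where GATA3 was the label, which is at least 43.0-fold higher. The 3 other member probe sets of PAPPA had means of 9.07, 8.74 and 7.58 in the arrays labelled GATA3 and of 2.34 to 2.89 in the control. HHIP, which binds Hedgehog ligands and keeps them from their receptor, read 3.16, 3.03 and 2.87 and 8.90, 8.88 and 8.52. In PAPPA and HHIP alike replicates 1 and 2 nearly coincided and replicate 3 lay 0.42 and 0.37 under their mean.

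BMP5, a ligand of the bone morphogenetic protein family, read 2.31, 2.38 and 2.35 in the control and 8.42, 8.17 and 8.17 in the arrays labelled GATA3, higher by at least 19.1-fold, and its other probe set had means of 2.21 and 7.90. The cytokine interleukin 1 alpha, IL1A, read 3.04 on each control array and 7.59, 8.17 and 7.48 in the arrays labelled GATA3, with replicate 2 the highest. EDN2, a vasoconstrictor peptide of the endothelin family, repeated 3.86 on the control arrays, just under the limit, and read 6.62, 6.49 and 6.86. DACT2, an intracellular modulator of Wnt and TGF-beta signalling, read 3.17, 3.29 and 3.07 and 7.12, 7.03 and 6.22. DACT2 thus lay near 7 on replicates 1 and 2 and only just over 6 on replicate 3.

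Another 4 genes encode surface proteases, a protease inhibitor and a receptor. DPP4 (CD26) is a membrane peptidase that trims peptide hormones such as GLP-1. Its probe set 203716_s_at read 3.02, 2.41 and 2.28 in the control and 9.71, 9.73 and 9.47 in the arrays labelled GATA3, higher by at least 49.8-fold, and its other probe sets had means of 2.65 and 2.17 in the control and 9.24 and 9.21 in the arrays labelled GATA3. All 3 probe sets of DPP4 on the array met the rule. SPINT1 (HAI-1), a membrane-bound inhibitor of serine proteases, read 3.38, 3.38 and 3.19 and 8.47, 8.51 and 8.12, at least 20.6-fold higher. ST14 (matriptase), the protease that HAI-1 blocks, read 3.44, 3.42 and 3.42 on 216905_s_at in the control and 6.61, 6.58 and 6.40 in the arrays labelled GATA3. GPRC5B, an orphan receptor of the class that holds the glutamate receptors, read 2.70, 2.50 and 3.05 and 7.90, 7.45 and 7.83. The inhibitor and the protease were thus over the limit in the same 3 arrays, as the rule demands, but ST14 was also over 4 in the control by another probe set, whose values are given with those of MYO10.

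The genes of epithelial junctions, skin and the cytoskeleton numbered 7. MPZL2, an adhesion protein of the immunoglobulin superfamily, read 2.25, 2.31 and 2.25 in the control and 8.80, 9.09 and 8.47 in the arrays labelled GATA3, higher by at least 27.7-fold. JCAD, a protein of endothelial cell junctions, read 2.74, 2.38 and 2.69 and 7.40, 7.54 and 7.41. Epiplakin, EPPK1, which binds keratin filaments, lay at the floor of 2.16 on all control arrays and read 7.58, 7.39 and 6.95, with replicate 3 the lowest. TMEM40, a membrane protein, read 2.85, 3.62 and 2.64 in the control and 7.15, 7.02 and 7.63 in the arrays labelled GATA3, and here replicate 3 was the highest. Dermokine, DMKN, secreted in the upper epidermis, repeated 2.50 on the control arrays and read 6.99, 6.76 and 7.69, again with replicate 3 the highest. The other members of this group were MYO10, the motor of filopodia, with means of 3.15 and 6.99, and NEBL, an actin-binding protein of muscle Z-discs, with means of 2.17 and 6.90.

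Secreted proteins and enzymes made up 8 genes with C5orf46. ODAPH encodes a phosphoprotein of tooth enamel formation, and has 1 probe set on the array. It read 2.52, 2.16 and 2.52 in the control and 10.75, 10.60 and 10.63 in the arrays labelled GATA3, means of 2.40 ± 0.20 and 10.66 ± 0.08 (SD, n = 3). Its groups lay farther apart than those of any other member. TCN1, which carries vitamin B12 in secretions, read 3.13, 2.65 and 2.71 and 7.76, 7.75 and 7.42. HKDC1, a hexokinase, read 3.54, 3.53 and 3.53 and 7.83, 7.68 and 7.13, with replicate 3 the lowest.

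Carbonic anhydrase 2, CA2, had the widest control spread of the 40 genes, at 3.57, 3.90 and 2.73, and read 7.57, 7.33 and 6.75 in the arrays labelled GATA3. The lipase gene LIPG read 2.18, 2.20 and 2.75 and 6.69, 6.73 and 6.23. Of the others in this group, ZG16B, a secreted lectin-like protein, had means of 3.12 and 6.97, and MOXD1, a monooxygenase related to dopamine beta-hydroxylase, means of 2.64 and 6.36. Control replicate 3 of CA2 lay well under the other control arrays, and no control array reached any array labelled GATA3, as the rule demands.

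Of the regulators inside the cell (4 genes with RASSF2 and SAMSN1), DIRAS3, an imprinted RAS-like GTPase known as a tumour suppressor, read 2.81, 2.22 and 2.16 in the control and 8.12, 7.52 and 7.04 in the arrays labelled GATA3. Its SD of 0.54 in the arrays labelled GATA3 was 1 of 3 over 0.5 among the 40 genes. RCAN2, an inhibitor of the phosphatase calcineurin, read 2.63, 2.63 and 2.52 and 7.28, 6.87 and 6.78, and its 3 control values were nearly the same.

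Nuclear proteins numbered 5. ZNF365, a zinc finger protein linked to genome stability, read 2.73, 2.75 and 2.73 in the control and 7.55, 7.39 and 8.09 in the arrays labelled GATA3, with replicate 3 the highest. GREB1L, a relative of the oestrogen-induced GREB1 that is needed for kidney development, read 2.87, 2.87 and 2.83 and 7.58, 7.46 and 7.26. ZNF165, a zinc finger gene known from testis and some tumours, read 3.33, 2.97 and 3.44 and 7.54, 7.27 and 7.23. LHX9, a LIM homeobox factor of the developing gonad and brain, read 2.32, 3.07 and 2.92 in the control and 7.26, 6.98 and 6.51 in the arrays labelled GATA3, so that replicate 3 lay 0.61 under the mean of the others. ZNF385B, another zinc finger protein, had means of 3.34 and 6.78.

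The remaining 5 genes belong to no group. RETREG1, a receptor that sends endoplasmic reticulum to autophagy, read 2.68, 2.44 and 2.70 in the control and 7.96, 7.76 and 7.70 in the arrays labelled GATA3. FAM174B read 2.75, 3.32 and 3.32 and 7.87, 7.98 and 7.50, and the cilium-associated CFAP95 read 2.84, 2.63 and 2.64 and 7.72, 7.65 and 7.32. For these 3 genes replicate 3 was the lowest array labelled GATA3, and all 3 such arrays lay over 7. ZNF204P, a transcribed pseudogene, read 3.59, 3.59 and 3.43 and 7.77, 8.07 and 7.98. The probe set annotated MIR302B read 2.61, 2.77 and 2.70 in the control and 6.28, 6.11 and 7.72 in the arrays labelled GATA3, with an SD of 0.88 that was the widest of the 40 genes. RefSeq places the 73-base hairpin of that microRNA inside LARP7 and MIR302CHG, so the transcript behind this reading was not settled. Of the 3 probe sets of LARP7 itself 1 lay at the floor of 2.16 on all 6 arrays. The others read 10.68 ± 0.12 in the control and 10.34 ± 0.30 in the arrays labelled GATA3, and 6.98 ± 0.08 and 6.86 ± 0.31 (SD, n = 3), and did not share the pattern.

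Genes on either side of the limits were much alike. The control values closest under 4 were those of CA2 (3.90), EDN2 (3.86) and the second JCAD probe set (3.79), and those closest above it belonged to DUSP2 (4.03), SMKR1 (4.07) and CLCN5 (4.09). The lowest values labelled GATA3 that still met 6 were those of MIR302B (6.11), DACT2 (6.22) and LIPG (6.23), and the highest that missed it were those of C10orf67 (5.97), KIAA1217 (5.95) and a CST6 probe set (5.95). With limits of 3 and 7 in place of 4 and 6 the rule kept 15 genes, and with 5 in both places 143.

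Whether the control cells were silent for a gene depended on the probe set. The 40 genes had 102 probe sets on the array, 55 of them outside the rule, for 22 genes, and 18 genes had no other. Of the 55, 29 lay at or under 4 on all 6 arrays, and 9 lay at or under 4 in the control and over 4 on at least 1 array labelled GATA3. Another 15 lay over 4 on all 3 control arrays and 2 on some of them, so for 10 genes the control was not below 4 throughout. For 30 genes no probe set of the array read over 4 in any control array, which the rule fixes for the 18 with no other probe set. Over the whole array, 23650 to 23758 of 54675 probe sets lay over 4 on each control array, so most probe sets of the array read as background there. Being probe sets of the same comparison, these readings describe the genes further and are no independent test.

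MYO10 is the clearest case of a gene that was on in the control. Its probe set 201976_s_at read 11.60, 11.52 and 11.48 in the control and 12.90, 12.94 and 12.91 in the arrays labelled GATA3, and 236718_at had means of 7.77 and 9.61, whereas the member probe set had means of 3.15 and 6.99. HHIP had 3 other probe sets with control means of 5.57, 5.68 and 5.58 and means of 10.30, 9.83 and 10.19 in the arrays labelled GATA3. The brightest probe set of MPZL2, 203780_at, read 5.16, 4.80 and 4.92 and 11.26, 11.32 and 11.20. In these 3 genes all probe sets were higher in the arrays labelled GATA3, from a control level that was not background on some of them. Other genes also had a probe set over 4 in the control that read higher in the arrays labelled GATA3, namely MOXD1 (5.48, 4.98 and 5.44 against 8.09, 8.18 and 7.73 on 1554474_a_at), ST14 (6.01 and 7.59 on 202005_at), ZNF385B (5.16 and 7.51 on 229019_at) and HKDC1 (5.14 and 6.84 on 237324_s_at). MOXD1 and ST14 each had a further probe set that lay at one background value on all 6 arrays. FAM174B reached 4.13 on 1 control array of 51158_at and read 8.43, 8.18 and 8.01 in the arrays labelled GATA3.

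IL1A and NEBL had probe sets that disagreed. IL1A probe set 208200_at read 5.40, 6.49 and 5.75 in the control and 5.39, 4.96 and 4.89 in the arrays labelled GATA3, slightly lower where the member probe set was far higher. NEBL probe set 216882_s_at repeated 6.01 on 5 arrays and read 6.40 on GATA3 replicate 3, and a value repeated so exactly need not be signal. In PAPPA, 201981_at had means of 2.55 and 5.94 and 6 others lay at or under 4 on all arrays. With the mean of all probe sets of a gene, the difference of the means moved by more than the spread between arrays for 18 of the 35 genes given here by array, for LHX9 from 4.15 to 1.07, for GPRC5B from 4.98 to 1.47 and for RETREG1 from 5.20 to 1.79. It kept its sign in all 35, which the rule fixes for genes with no other probe set.

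**Figure D2:**
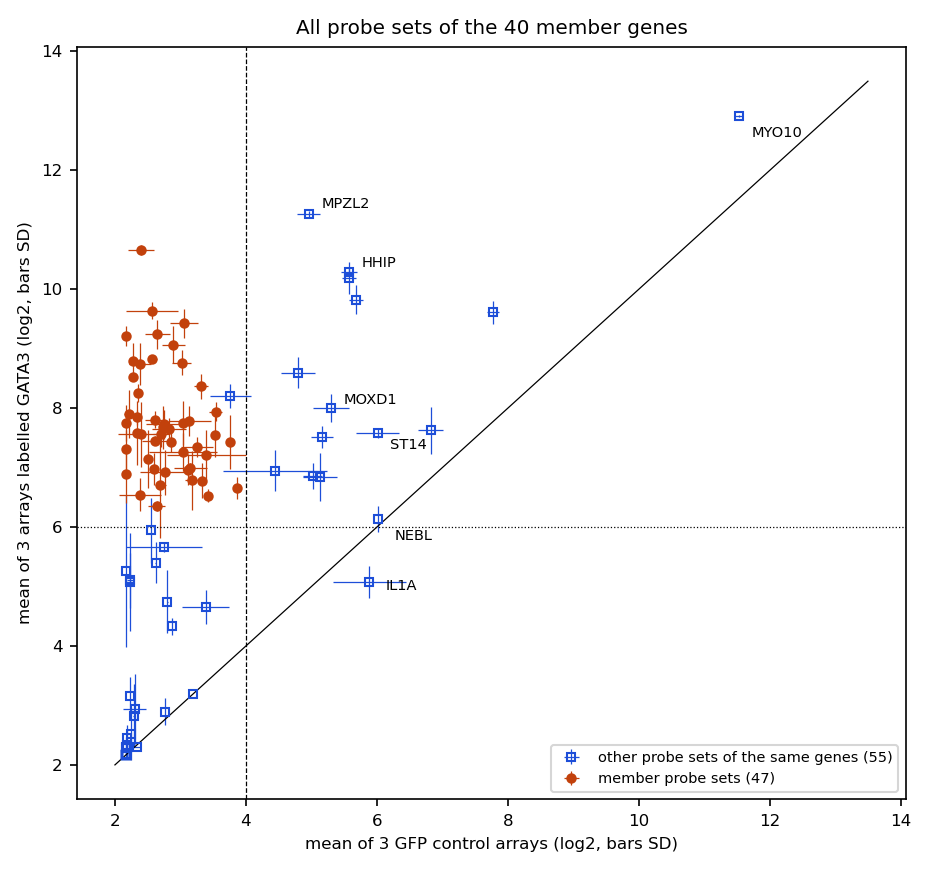
Mean expression value (log2) in the 3 arrays labelled GATA3 (vertical axis) against that in the 3 GFP control arrays (horizontal axis) for all 102 probe sets of the 40 genes, with SD bars in both directions, the line of equality, and the limits of 4 and 6 dashed and dotted. The 47 member probe sets (filled circles) fill the upper left by construction, and the 55 others (open squares) include MYO10, MPZL2, HHIP, MOXD1 and ST14 probe sets right of 4 and above the line, NEBL near it and IL1A under it.

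The rule was also applied with 1 replicate number left out, and the arrays it had not used were then read. The 47 member probe sets are among those chosen each time, and meet both limits in the left-out arrays by definition, so these readings are a description and lend the members no support. With number 1 left out, 49 probe sets of 42 genes were chosen, and the array labelled GATA3 of the left-out pair was higher by a median of 4.94. With number 2 left out 50 were chosen, with a median of 4.81, and with number 3 left out 54, with 1.74 to 8.11 and a median of 4.69. Without GATA3 replicate 3 alone, the array with the other raw-file date, the rule kept all 40 genes, as it must with fewer arrays. It added 5 (C10orf67, CLCN5, FAM184B, KIAA1217 and WT1).

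Within the arrays labelled GATA3, replicate 3 was the lowest for 23 of the 40 genes (57.5%) and the highest for 6, and it lay a median of 0.22 under the mean of replicates 1 and 2. All tested probe sets had the same lean, with replicate 3 lowest in 59.4% and a median of -0.12, and so had the 13815 tested probe sets within the range of the members' means (66.6% and -0.17). The members lowest on replicate 3 were DACT2 (-0.86), DIRAS3 (-0.78), CA2 (-0.70) and HKDC1 (-0.62). Those highest were MIR302B (1.53), DMKN (0.82), ZNF365 (0.61) and TMEM40 (0.55). Of the 40 genes, 29 lay within 0.5, a cut for which no share over all probe sets was taken. Their median absolute difference between replicates 1 and 2 was 0.16, smaller than their median shift on replicate 3. Over all tested probe sets that difference was 0.08.

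**Figure D3:**
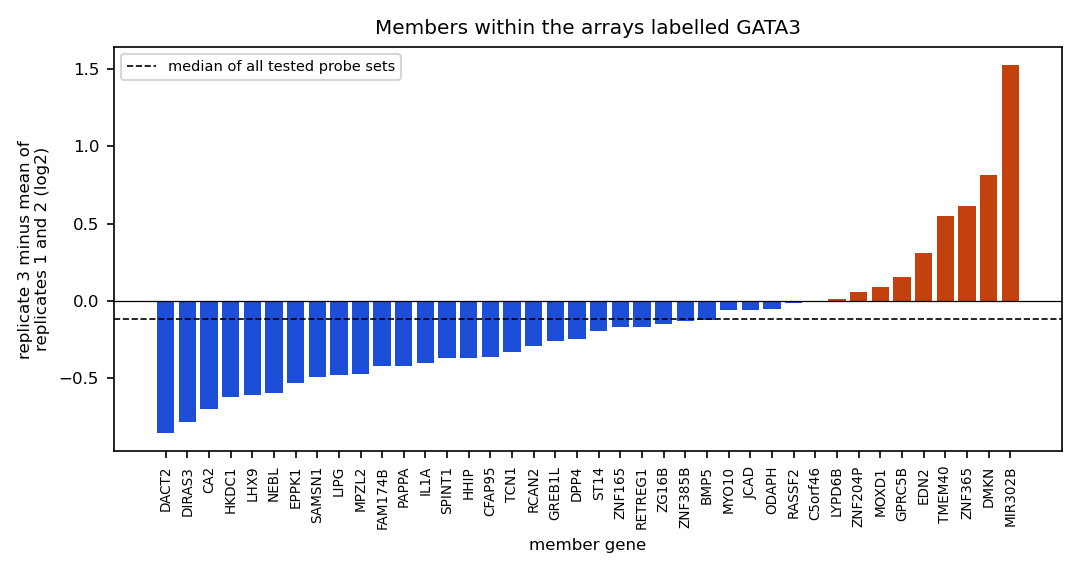
Bars give GATA3 replicate 3 minus the mean of GATA3 replicates 1 and 2 (log2, vertical axis) for each of the 40 genes (horizontal axis, ordered), starting at 0. The dashed line is the median of all tested probe sets, -0.12. Most bars are shallow and negative, and MIR302B, at 1.53, stands apart from the rest.

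Most relatives of these genes that could be tested did not pass the threshold. Relatives were taken as genes whose symbols share the letters before the first digit with a member (stems such as BMP, DPP, LYPD and RASSF, up to 12 genes each). Of 69 on the array, 27 could be tested, and 5 (18.5%) were higher and 1 (3.70%) lower in limma, against 14.8% and 14.5% of all genes. LYPD1 and LYPD6, LY6 proteins like LYPD6B, were the highest. LYPD1 read 2.38, 2.54 and 2.54 in the control and 5.68, 5.90 and 6.60 in the arrays labelled GATA3, higher by at least 4.16-fold. It was over 4 only on the arrays labelled GATA3 and could be tested only through them. Its direction was thus fixed, and no p-value is given, though it is counted in the 5. LYPD6 rose 4.57-fold from a mean of 6.29 to 8.48 (limma adjusted p 0.000447). LYPD6 was thus active in the control where LYPD6B read as background.

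MPZL3, which lies next to MPZL2, was at least 2.34-fold higher, a call lost without control replicate 1 or 2. Like LYPD1 it was over 4 only on the arrays labelled GATA3 and could be tested only through them. Its direction was thus fixed, and no p-value is given, though it is counted in the 5. DPP3 changed by 0.39 (limma adjusted p 0.0139; 0.0554 and 0.0555 without GATA3 replicate 2 or control replicate 2) and SPINT2, the other HAI inhibitor, by 0.29 (limma adjusted p 0.0131). DPP7, an intracellular dipeptidase, was the relative that fell, by 0.60 on the log2 scale (limma adjusted p 0.00438). The other 21, among them BMP4 (0.12), BMP7 (0.15), EDN1 (-0.25), PAPPA2 (-0.09), RCAN1 (0.09), RASSF1 (0.03) and RETREG2 (-0.02), did not pass the threshold. The count higher was 3 without GATA3 replicate 1 or control replicate 2 and 2 without GATA3 replicate 2.

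Genes that lie next to a member in the RefSeq gene order (GRCh38.p14) included several that were higher as well. Of the nearest protein-coding genes on each side, 68 were on the array and 41 could be tested, of which 15 (36.6%) were higher and 8 (19.5%) lower, with a median change of 0.18; the background was 14.8% and 14.5%, and the difference in shares was not tested. PRND, the prion-like gene beside RASSF2 and itself one of the genes left out of the rule by name, was at least 67.4-fold higher. It lay within the limits of the rule, so this comparison chose it as it chose the members. No p-value is given for it, though it is counted in the 15. LYPD6, beside LYPD6B, is given above, and RTKN2, beside ZNF365, was at least 3.50-fold higher. RTKN2 was over 4 only on the arrays labelled GATA3 and could be tested only through them, so its direction was fixed. The same held for MPZL3, beside MPZL2 and given above, and both are counted in the 15. NEK7, a mitotic kinase gene beside LHX9, rose 2.78-fold from a mean of 12.53 to 14.00 (limma adjusted p 7.55e-05).

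The neighbours that were lower included TNC, the matrix glycoprotein gene beside PAPPA, which fell by 2.94 on the log2 scale from a mean of 8.50 to 5.56 (limma adjusted p 0.000349). NRIP1, a nuclear receptor corepressor beside SAMSN1, fell by 1.24 (limma adjusted p 0.0180), a call lost without control replicate 1, 2 or 3 (adjusted p 0.0542, 0.0686 and 0.0751). The count lower was 3 without control replicate 1, 2 or 3 and 5 without GATA3 replicate 2. Members themselves were seldom adjacent: RETREG1 and MYO10 lie side by side, and the next closest, ZNF204P and ZNF165, have 20 protein-coding genes between them. The 40 genes lie on 16 chromosomes.

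**Figure D4:**
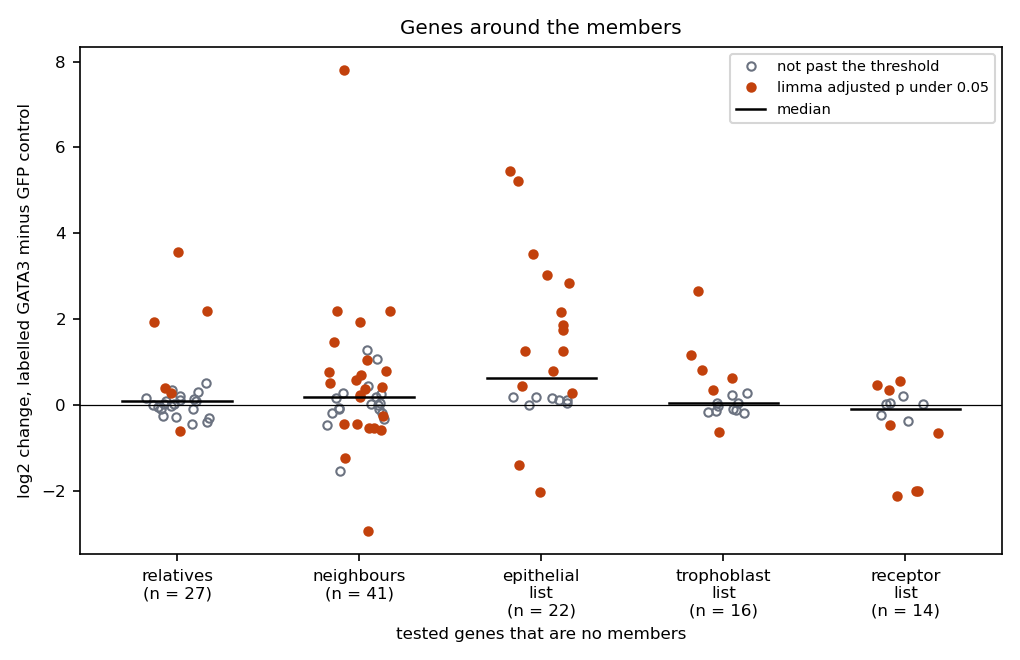
Log2 change between the groups (arrays labelled GATA3 minus GFP control, vertical axis) of tested genes that are no members, for relatives, neighbours and the epithelial, trophoblast and receptor lists (horizontal axis, with the number tested). Filled points passed a limma adjusted p of 0.05, open points did not, and the bar is the median. Each point is the measured difference, also where a group lay at or under 4, as the control did for PRND, the highest of the neighbours. The median bar stands at 0.62 for the epithelial list, 0.18 for the neighbours, 0.08 for the relatives, 0.05 for the trophoblast list and -0.10 for the receptors.

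Lists of genes that share a setting with members show what moved beside them. Of 40 epithelial surface, trafficking and transcription genes, 22 could be tested beside the members SPINT1 and ST14, which the rule chose by this comparison. Of these 22, 13 were higher, 2 lower and 7 not called in limma, with a median change of 0.62 against -0.02 over all genes. MAL2, an apical transport protein, rose 43.9-fold from a mean of 6.39 to 11.85 (limma adjusted p 0.000102), and OVOL2, a repressor of mesenchymal genes, rose at least 13.0-fold. OVOL2 lay within the limits of the rule and was left out by name. The comparison thus chose it as it chose the members, and it is counted in the 13. PPL, also counted there, was over 4 only on the arrays labelled GATA3 and could be tested only through them, so its direction was fixed. TMC5, a channel-like membrane protein, rose by 3.51 on the log2 scale and CDS1, an enzyme of phospholipid synthesis, by 3.02. EHF, an epithelial ETS factor, fell by 2.02 and the adhesion receptor ADGRG1 fell by 1.40, so the list did not move as one.

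Of 50 trophoblast and placenta genes, 16 could be tested beside the member PAPPA, chosen likewise. Of these 16, 5 were higher, 1 was lower and 10 were not called in limma, with a median of 0.05. VGLL3, a cofactor of TEAD proteins, rose 6.33-fold from a mean of 7.15 to 9.81 (limma adjusted p 0.000810), GATA2 rose 2.26-fold and TFAP2A 1.76-fold. PEG10, an imprinted placental gene, fell by 0.63. With PAPPA counted, the count higher was 6, and 3 without GATA3 replicate 1 or 2. Most genes of the list, hormone genes such as CGA among them, were not over 4 on enough arrays to be tested.

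Of 14 testable receptors for interleukins, chemokines and growth factors, 3 were higher, 5 lower and 6 not called in limma, with a median of -0.10. OSMR, the oncostatin M receptor, rose by 0.56, while LIFR, the leukaemia inhibitory factor receptor, fell by 2.13 and IL31RA fell by 1.99. CXCR4, a chemokine receptor, was at least 1.70-fold lower, from a control mean of 4.77 to values under 4. It could be tested only through the control arrays, so its direction was fixed, though it is counted in the 5. The count higher was 1 without GATA3 replicate 1 or 2 or any of control replicates 1, 2 and 3, and the count lower was 3 without control replicate 2. The remaining lists had few testable genes. Of 4 cornified envelope genes 1 was higher (CST6, by 0.66) and 0 were lower, at an unadjusted p under 0.05 likewise 0. Of 8 neuronal genes SCG2, a granin of secretory granules, rose by 6.14 and its relative SCG5 by 1.50, and 0 were lower (1 at an unadjusted p under 0.05). Of 3 cancer-testis genes 0 were higher (1 at an unadjusted p under 0.05) and SPANXB1 fell by 2.60.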

How the data were processed

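Total RNA of GFP-sorted MDA-MB-231 cells was biotin-labelled and hybridised to 6 single-colour Affymetrix arrays, 3 per group, per the labels' protocols. The authors deposited GCRMA expression values, read here as log2, with the tool taken from the submitters' processing notes and its version not given in these sources. The labels do not state the scale, and the log2 reading rests on GCRMA and on the range of the values. GCRMA subtracts a background modelled on probe sequence, which leaves many probe sets at a floor of 2.16 or at a repeated value of their own. Values were used as deposited.

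The members and the gene lists were chosen with earlier results of these data known. The platform annotation supplied the symbols: 41097 probe sets had 1, 1801 had several and 11721 had none. The R package limma (version 3.58.1, R 4.3.3) with an intensity trend compared the groups over the 23785 probe sets above 4 on at least 3 of 6 arrays, leaving out 62 control probe sets, with Benjamini-Hochberg adjustment over all of them and a threshold of 0.05. For each gene the tested probe set of highest mean was used. Members were in the fit, and calls are given for other genes. A probe set at or under 4 on all arrays of 1 group was tested only through the other group, which fixed its direction. The fit was tested on simulated data. A fold against a group at or under 4 on all arrays was given as a lower bound, against 4.

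Values by array were given for GATA3, the 15 members with the highest mean in the arrays labelled GATA3, up to 4 members of each role, the 4 lowest and 4 highest on GATA3 replicate 3 and the 3 genes nearest each limit. Of relatives and lists, up to 4 genes with the largest difference were named among those called. The 7 relatives named as not called, the neighbours and the other probe sets of members were chosen after their values were seen. Replicate numbers did not pair the samples: the correlation of the deviations of same-numbered arrays was -0.13, 0.16 and -0.11.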

Additional observations from a re-analysis of the deposited data

Results flagged for a closer look

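Probe sets within the same limits but without a single gene symbol were left out of the rule. There were 10 of them, 8 with several symbols and 2 with none. The highest mean among them in the arrays labelled GATA3 was 10.76, for 215821_x_at, which read 3.72, 3.70 and 2.71 in the control, and no gene is named from it.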

How the results depend on the processing

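The number of members followed the limits: 17 probe sets of 15 genes at limits of 3 and 7, 164 of 143 genes at 5 and 5, and 27 of 26 genes with plain _at probe sets alone. Without 1 array it was 48 to 52 probe sets and 40 to 45 genes, and all 40 genes remained. Leaving out an array can only loosen the limits, so no gene could be lost there. After quantile normalization it was 49 and 42, and all 40 genes remained. For the 35 genes given by array, 262 of 280 differences of the means under other settings moved by less than the spread between arrays, 18 moved by more and 0 reversed. All 18 came from the mean of all probe sets of the gene. Leaving out 1 array could reverse none, because the rule keeps the groups apart, so the pooled count is no measure of stability.

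Of the tested probe sets, 4264 were higher and 5123 lower with array weights, and 1767 were lower with low values left in. With the replicate block 2106 probe sets, 3 neighbours and 1 receptor (higher) were called where the fit without it called 3329, 8 and 3, and no other count moved by over 1.5 times. Leaving out 1 array gave 1734 to 3369 higher and 1683 to 3727 lower. It gave 2 to 5 relatives higher and 1 to 2 lower, 3 to 7 neighbours lower, 3 to 6 trophoblast genes (PAPPA included) higher and 1 to 2 lower, and 1 to 3 receptors higher and 3 to 5 lower. Relatives were 8 higher and 4 lower with array weights, 2 lower after cyclic loess, without the trend or above 5 in place of 4, 3 higher without the filter, and 2 higher and 0 lower with stems over 6 genes left out, where 3 were higher and 1 lower at an unadjusted limma p under 0.05. Array weights gave 2 trophoblast genes and 1 neuronal gene lower. Neighbours were 3 lower without the filter, and 25 higher and 13 lower with the nearest 2 genes on each side. The last setting and that on stems were chosen after seeing the data. The cause of these changes was not tested. Signal over background limits the control levels of the member probe sets, which are bounds.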
